A study of Mus musculus with 47 samples.

Results

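The comparison described here sets wild-type intestinal mucosa of PWD mice against that of C5 mice. PWD/Ph (PWD) is an inbred strain derived from wild mice of the subspecies Mus musculus musculus. C5 is a consomic strain, C57BL/6 throughout except for chromosome 5, which comes from PWD/Ph. Both groups therefore carry 2 PWD copies of chromosome 5, and they differ in strain on every other chromosome. The members are the 6 libraries labelled with these strains, the wild type and normal intestinal mucosa, 3 PWD and 3 C5, of 47 libraries in the series. Mice were 15 to 19 weeks old, both groups carried intact Apc, and no treatment is given. The labels give neither the sex, nor the segment of intestine, nor whether the 3 libraries of a group came from 3 animals, and p-values cover only the spread among libraries, which may be technical. The series sets intestinal tissues of mice with and without the tumour-inducing Min allele of Apc beside each other in several mixtures of these genomes. Further groups of 3 libraries each were used to see genes in other mice: the first-generation cross of C57BL/6 and PWD (B6xPWD) and C57BL/6 itself (B6), as wild-type mucosa, as uninvolved mucosa of Apc Min mice, and as adenoma. Bglap3 alone was also read in wild-type mucosa of C5F1 (the cross of B6 and C5) and in adenoma and uninvolved mucosa of C5 Min mice. It was read too in B6 and C5 organoids with and without the drug 5-aza-cytidine, 2 libraries per group. B6xPWD carries 1 PWD copy where PWD carries 2, and it shares no library with the PWD and C5 groups.

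The mucosa of the small intestine is a sheet of absorptive enterocytes interspersed with mucus-secreting goblet cells, hormone-producing enteroendocrine cells and, at the crypt base, Paneth cells that release antimicrobial peptides. Enterocytes change along the length of the gut. The duodenum and jejunum digest and absorb sugars and fat under the transcription factor Gata4, whereas the ileum takes back bile acids through the transporter Slc10a2 and the binding protein Fabp6. Inbred C57BL/6 mice are known to lack some genes that wild mice carry in working form, among them the Paneth cell phospholipase Pla2g2a and the antiviral GTPases Mx1 and Mx2.

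The 6 libraries held between 2726505 and 6876158 reads counted to genes, of which the ribosomal precursor Rn45s took 32.8 to 58.6%. Values are given as TMM-normalised CPM (a gene's count scaled to its library's total), in the order of replicates 1, 2 and 3. Reads without a gene made up 49.3 ± 1.66% of a PWD library and 48.1 ± 1.86% of a C5 library (SD, n = 3 each, exact two-sided permutation p = 0.5, where 0.1 is the smallest this design allows). For all 6 libraries the counts held 0 unaligned reads, so this share cannot show reads lost to mismatches with the reference genome. The Y-linked genes Ddx3y, Eif2s3y, Kdm5d and Uty were present in all 6 libraries. Of these 4 genes edgeR called 0 and DESeq2 0, with 0 at an unadjusted p under 0.05.

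PWD replicates 1 and 2 stood apart from the other libraries by the segment their genes belong to. Fabp6, the ileal bile acid binding protein, was at 1.02, 0.144 and 4744 CPM in PWD, against 1113, 3465 and 1758 CPM in C5. Slc10a2, the ileal bile acid transporter, was at 2.03, 0.577 and 209 CPM in PWD, against 21.3, 106 and 171 CPM in C5. PWD replicates 1 and 2 were thus nearly without both, while PWD replicate 3 lay above every C5 library. Fabp1, the fatty acid binding protein of proximal enterocytes, ran the other way, at 721, 1015 and 4.86 CPM in PWD, against 46.2, 6.12 and 2.64 CPM in C5. Gata4 was at 79.7, 132 and 25.2 CPM in PWD and 71, 38.3 and 0.441 CPM in C5, so the groups overlapped, and C5 replicate 3 was nearly without it. Over 12 tested genes of the distal ileum the summed level was 1198, 781 and 8126 CPM in PWD, against 2157, 6159 and 4443 CPM in C5. Over 15 tested genes of the proximal small intestine it was 5831, 7061 and 2439 CPM in PWD, against 1970.3, 2355 and 1484 CPM in C5. Fabp6, Slc10a2, Fabp1 and Gata4 were above 0 in all 6 libraries. None of Fabp6 (adjusted p = 0.865), Slc10a2 (0.769) and Gata4 (0.547) was called, while Fabp1 was (log2 change 5.22 ± 1.29, adjusted p = 0.00486). The results below are therefore also given for PWD replicate 3 alone against the 3 C5 libraries, where the spread is taken from the other groups and the lone library is assumed to vary like them. That fit was added after the data were seen.

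**Figure D1:**
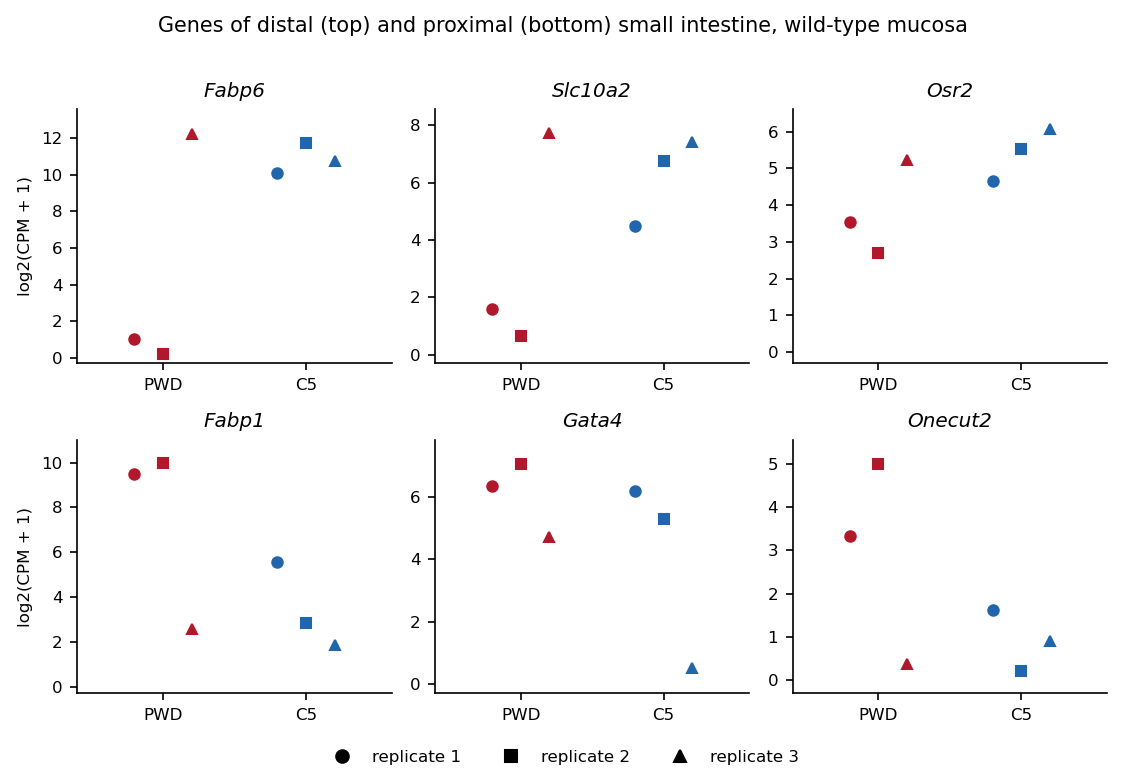
TMM-normalised expression (log2(CPM + 1), vertical axis) of 3 distal genes (top row) and 3 proximal genes (bottom row) in each PWD and C5 wild-type library, with a marker shape for each replicate. PWD replicates 1 and 2 lie below all C5 libraries for Fabp6, Slc10a2 and Osr2 and above them for Fabp1 and Onecut2, while PWD replicate 3 lies among the C5 libraries or, for Fabp6 and Slc10a2, above them.

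Across the genome 2200 of 13657 tested genes differed between PWD and C5 (edgeR quasi-likelihood test, Benjamini-Hochberg adjusted p under 0.05), which is 16.1%. In PWD 1155 genes were higher (8.46%) and 1045 lower (7.65%), and 1257 of the called genes changed more than 2-fold (9.2%). The 3 libraries of each group did not overlap for 1927 of the 2200 called genes and for 4294 of all 13657 genes tested (31.4%). A call and a lack of overlap are drawn from the same 6 libraries. The count was 1086 without PWD replicate 2 and 1259 without C5 replicate 3, and 814 genes were called whichever of the 6 libraries was left out. With PWD replicate 3 alone 353 of 14384 genes were called (2.45%), 198 higher and 155 lower. Of these, 350 were also tested with all 6 libraries and 326 were called there in the same direction.

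Chromosome 5, the only chromosome on which both groups carry PWD alleles, had the lowest share of called genes among the autosomes and the X chromosome. Of its 867 tested genes 91 were called (10.5%), 64 of them higher in PWD and 27 lower. Over the remaining chromosomes 16.5% of tested genes were called, and the 18 other autosomes ranged between 14.4% on chromosome 11 and 19.6% on chromosome 16, with 12% on the X chromosome. The median absolute log2 change was 0.300 on chromosome 5 and between 0.337 and 0.402 on the other autosomes. The median signed change was 0.018 on chromosome 5 and -0.001 elsewhere. With PWD replicate 3 alone, 7 of 912 chromosome 5 genes were called (0.768%), against 2.58% elsewhere and 1.26 to 4.31% on the other autosomes.

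**Figure D2:**
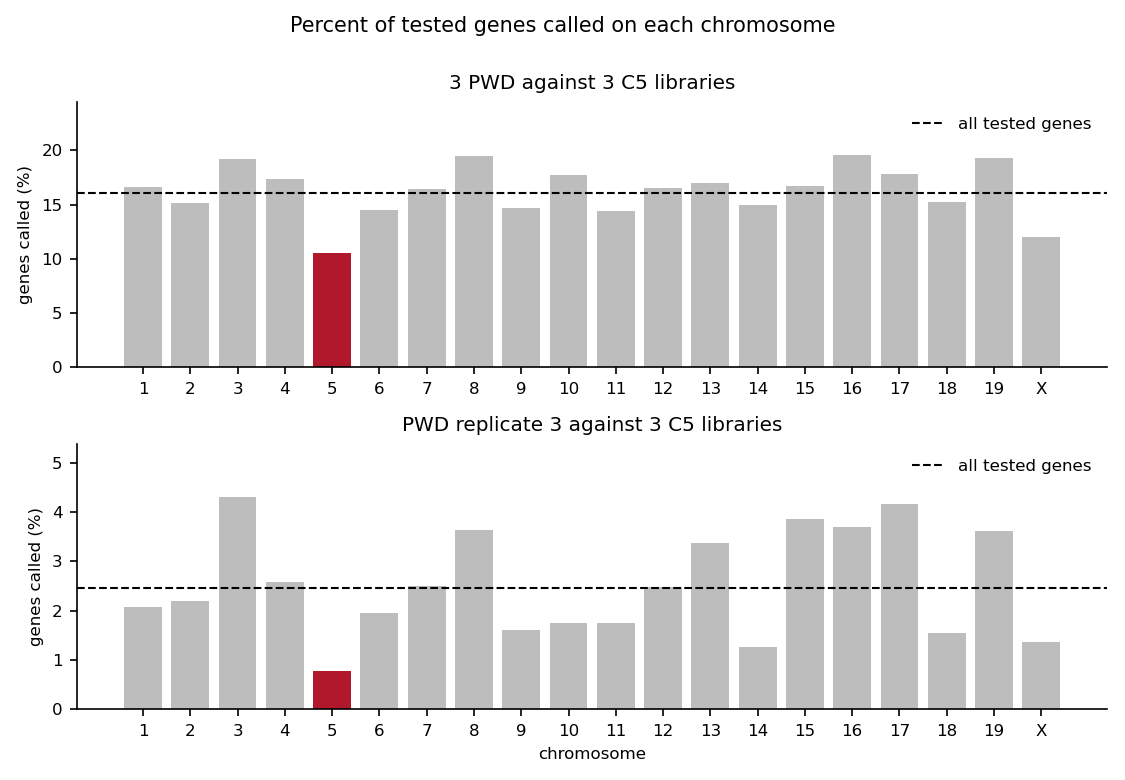
Percent of tested genes called at an adjusted p under 0.05 (vertical axis) on each chromosome (horizontal axis), for all 6 libraries (top) and for PWD replicate 3 against the 3 C5 libraries (bottom), with chromosome 5 in red and the value over all tested genes as a dashed line. Chromosome 5 is the lowest of the autosomes and the X chromosome in both panels, at 10.5% and 0.768%.

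The tested genes listed as defective in C57BL/6 were higher in PWD than in C5, and this count describes a list chosen from earlier knowledge. All 4 tested members of the list were called higher, against 8.46% of all tested genes, and 3 of the 4 with PWD replicate 3 alone (background 1.38%). Pla2g2a, the secreted phospholipase of Paneth cells that modifies tumour number in Min mice, lies on chromosome 4 (mm10, 138831857 to 138835189) and is annotated in the C57BL/6 reference as a transcribed pseudogene. It was at 1541, 1058 and 1927 CPM in PWD, against 17.1, 14.2 and 26 CPM in C5, a 77.1-fold difference (log2 change 6.27 ± 0.42 (SE), adjusted p = 7.14e-13). All PWD libraries, replicate 3 included, were far above all C5 libraries. The cross overlapped PWD, at 1181, 760.2 and 843 CPM in B6xPWD and 31.1, 27.5 and 17 CPM in B6. Nnt, the mitochondrial transhydrogenase that makes NADPH (chromosome 13, 119335527 to 119409257), was at 68.3, 79.3 and 90.9 CPM in PWD and 18.7, 25.3 and 23.9 CPM in C5 (3.43-fold, adjusted p = 9.19e-08). B6 libraries had 51, 65.1 and 50.5 CPM, above C5 and closer to the 63.7, 74.2 and 76.9 CPM of B6xPWD. The change of 0.36 between B6xPWD and B6 was not called (adjusted p = 0.243). Nnt was thus not low in the B6 libraries, although it is on the list. Of the 4 tested members, 1 was called higher in B6xPWD over B6 wild-type mucosa and 0 lower (5.29% and 4.31% of all tested genes).

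Mx2, which blocks viruses such as vesicular stomatitis virus, was at 5.59, 5.34 and 5.47 CPM in PWD and 0.519, 0.161 and 0.588 CPM in C5 (log2 change 3.02 ± 0.63, adjusted p = 0.00109). The PWD libraries lay close together and above all C5 libraries. Mx1, which blocks influenza viruses, was at 4.57, 4.47 and 1.82 CPM in PWD and 2.08, 0.805 and 0.735 CPM in C5 (adjusted p = 0.023). These groups overlapped, and the call was lost without PWD replicate 1, PWD replicate 2, C5 replicate 2 or C5 replicate 3, with adjusted p of up to 0.143. H2-Ea-ps, the class II gene that C57BL/6 does not express, reached 0.254 CPM in 1 PWD library and had no read in C5, and was not tested.

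Paneth cell genes included several that were nearly unread in PWD. Of 19 tested Paneth cell genes 1 was called higher (Pla2g2a, and 2 without PWD replicate 3) and 7 lower, against 8.46% and 7.65% of all tested genes. The median log2 change of the list was -0.78, and over all tested genes it was 0. With PWD replicate 3 alone the list median was -0.29. The summed level of the list overlapped, at 7612, 5081 and 8265 CPM in PWD and 9058, 8588 and 6808.5 CPM in C5. The number of falls was 5 without PWD replicate 2 and 9 without PWD replicate 3. The falls were led by alpha-defensins, the pore-forming peptides that Paneth cells secrete into the crypt. Defa17 (chromosome 8) was at 1.78, 0.288 and 0 CPM in PWD and 129.7, 126 and 130.3 CPM in C5 (log2 change -7.07 ± 0.62, adjusted p = 6.39e-10). Defa3 was at 0.254, 0 and 0 CPM in PWD and 28, 24.8 and 23.9 CPM in C5, and Defa26 at 0, 0 and 0.304 CPM in PWD and 25.4, 14.3 and 16.6 CPM in C5. All 3 were nearly unread in every PWD library, PWD replicate 3 included. Defensin genes are near-identical copies on chromosome 8 whose number differs between strains, so the authors' counting can split or drop their reads and each of these values is uncertain. The log2 change of Defa17 in B6xPWD over B6 was -2.08 (adjusted p = 0.00205). Of the list, 1 gene was called higher and 4 lower with PWD replicate 3 alone (background 1.38% and 1.08%).

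Other antimicrobial genes went both ways, with 3 of 18 tested members higher and 4 lower (8.46% and 7.65% of all genes). Retnlb, a resistin-like antibacterial protein of goblet cells, was at 32, 32.9 and 106 CPM in PWD, against 0, 0 and 1.32 CPM in C5 (log2 change 5.99 ± 0.92, adjusted p = 2.07e-05). It was likewise at 40.2, 38 and 64.2 CPM in B6xPWD, against 0.905, 0 and 0 CPM in B6 (log2 change 6.07, adjusted p = 0.000155). Neither pair of groups overlapped. Lyz2, the lysozyme of macrophages, was at 413, 150.0 and 292 CPM in PWD and 45.1, 33.8 and 34.4 CPM in C5 (log2 change 2.92 ± 0.44, adjusted p = 1.69e-05). Lyz2 is a close copy of the Paneth cell lysozyme Lyz1, so its reads may be shared, and it was also higher in B6xPWD than in B6 (log2 change 2.38, adjusted p = 0.00052).

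Nos2, the inducible nitric oxide synthase (chromosome 11, 78920787 to 78960226), was lower in PWD. It was at 0.254, 0 and 0.608 CPM in PWD, against 48.2, 67.3 and 52.9 CPM in C5, with 3 reads in the PWD libraries together and 871 in the C5 libraries (ratio of C5 to PWD 275, 95% counting interval 93.8 to 1336). Duoxa2, the maturation factor of the hydrogen peroxide-producing oxidase Duox2, was at 3.05, 1.73 and 18.8 CPM in PWD and 375, 154 and 66.2 CPM in C5 (log2 change -4.71 ± 0.87, adjusted p = 0.00027). It was also lower in B6xPWD, by a log2 change of -2.98 (adjusted p = 0.0165). With PWD replicate 3 alone Nos2 kept its call (adjusted p = 0.0336) and Duoxa2 did not (adjusted p = 0.164).

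The inflammasome is a complex that senses bacterial products in the cytosol and triggers cell death. Of 23 tested genes of Nod-like receptors, inflammasomes and gasdermins 9 were called lower in PWD (7.65% of all genes), 1 higher (8.46%) and 13 neither, with a median log2 change of -0.57. Gsdmc4, a pore-forming gasdermin of the gut epithelium (chromosome 15), had no read in any PWD library and 126, 34.8 and 24.7 CPM in C5, at least 198-fold lower in PWD against a floor of 3 reads over the group. Naip6, one of a cluster of near-identical sensors on chromosome 13, had no read in PWD either and 13.5, 14.5 and 22.6 CPM in C5, at least 85.3-fold lower. Without PWD replicate 2 these limits were 101 for Gsdmc4 and 43.5 for Naip6. Reads can be split among copies in both families. Casp4, the caspase that binds bacterial lipopolysaccharide and cleaves gasdermin D, was at 3.56, 1.88 and 2.74 CPM in PWD and 13, 15.5 and 18.7 CPM in C5 (adjusted p = 0.000174).

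Il18, the cytokine that inflammasomes release from epithelium, was the member called higher. It was at 53.1, 83 and 41 CPM in PWD, against 7.26, 11.8 and 14.5 CPM in C5 (log2 change 2.32 ± 0.41, adjusted p = 0.000153). The groups did not overlap, and PWD replicate 3 was the lowest of the PWD libraries. With that library alone 2 of the list, Gsdmc4 and Naip6, were called lower and none higher (background 1.08% and 1.38%). In B6xPWD over B6 the log2 change of Il18 was -0.70 (adjusted p = 0.308).

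Goblet cell genes were lower in PWD in 7 of 18 tested cases and higher in 1, beside 7.65% and 8.46% of all tested genes. The rise was Clca1, which was called without each of the 6 libraries in turn. Its log2 change ran from 1.63 without PWD replicate 1 to 2.85 without C5 replicate 2. The median log2 change of the list was -0.80, and -0.3 with PWD replicate 3 alone. In B6xPWD over B6 wild-type mucosa that median was 0.32. The falls numbered 4 without PWD replicate 2, 4 without C5 replicate 3 and 11 without PWD replicate 3. Muc4, a membrane-bound mucin (chromosome 16), was at 1.02, 1.15 and 0.608 CPM in PWD and 46.7, 18.2 and 32 CPM in C5 (log2 change -4.62 ± 0.75, adjusted p = 4.58e-05). Ccl6, a chemokine, was at 53.6, 49 and 48.3 CPM in PWD and 145, 181 and 200.4 CPM in C5 (log2 change -1.80 ± 0.20, adjusted p = 5.9e-08). Both were low in every PWD library, and both were lower in B6xPWD than in B6 (adjusted p = 0.00198 for Muc4 and 4.81e-05 for Ccl6). Zg16, the lectin of the mucus layer that binds Gram-positive bacteria, was at 516, 186 and 574 CPM in PWD and 1372, 1482 and 1933 CPM in C5 (log2 change -1.91 ± 0.33, adjusted p = 0.000116). Zg16 was not called with PWD replicate 3 alone (adjusted p = 0.0671). The summed level of the list was 9379, 5898 and 10178 CPM in PWD and 15026, 14654 and 17310.4 CPM in C5. Fewer cells of a type and less RNA per cell cannot be told apart in bulk tissue.

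**Figure D3:**
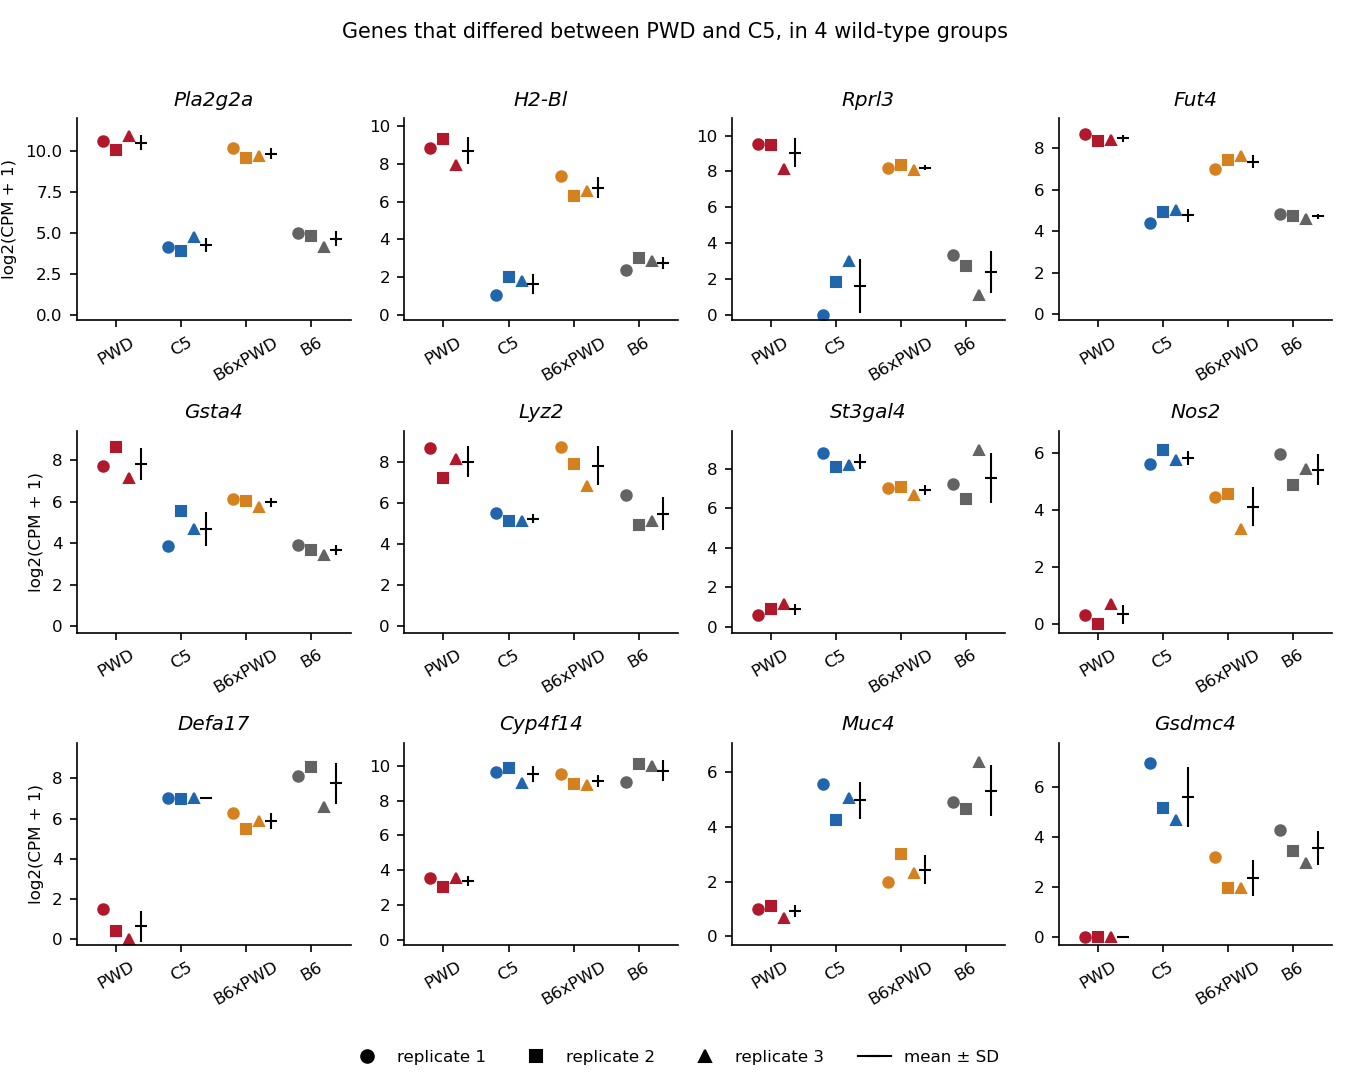
TMM-normalised expression (log2(CPM + 1), vertical axes) of 12 genes in the wild-type libraries of PWD, C5, B6xPWD and B6, with a marker for each library and the mean ± SD (n = 3) beside each group. The 6 genes that open the figure (Pla2g2a to Lyz2) are higher in all PWD than in all C5 libraries and the other 6 (St3gal4 to Gsdmc4) lower, for example 1058 to 1927 CPM against 14.2 to 26 CPM for Pla2g2a.

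Enzymes that build the sugar chains of mucins and of cell surfaces differed in both directions. Of 31 tested glycosyltransferases and related enzymes 5 were called higher and 8 lower (8.46% and 7.65% of all genes). The rises numbered 2 without PWD replicate 2 or C5 replicate 1 and 3 without PWD replicate 1 or C5 replicate 2. St3gal4, a sialyltransferase that caps galactose on glycans (chromosome 9, 35046576 to 35116864), was nearly silent in PWD. It was at 0.508, 0.866 and 1.22 CPM in PWD, against 446, 272 and 297 CPM in C5, 292-fold lower in PWD (log2 change -8.19 ± 0.76, adjusted p = 2.5e-09). B6xPWD and B6 overlapped, at 130.0, 137 and 101 CPM and 148, 89.7 and 500.3 CPM (adjusted p = 0.234). Fut4, the fucosyltransferase that makes the Lewis x structure (chromosome 9, 14748459 to 14752122), went the other way. It was at 410.3, 326 and 330.4 CPM in PWD, against 20.2, 28.8 and 31 CPM in C5, 13-fold higher (adjusted p = 6.96e-13).

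Fut4 was also higher in the cross, with 127, 171 and 194 CPM in B6xPWD and 27.5, 25.8 and 22.7 CPM in B6 (log2 change 2.67, adjusted p = 4.55e-09). Gal3st2, a sulfotransferase of mucin sugars, was at 4.32, 3.17 and 9.12 CPM in PWD and 28.5, 30.6 and 32.6 CPM in C5 (log2 change -2.48 ± 0.33). B4galnt3, which adds N-acetylgalactosamine to glycans, was at 4.32, 5.77 and 8.51 CPM in PWD and 27, 18.2 and 25 CPM in C5 (log2 change -1.87 ± 0.24). All 4 enzymes were called with PWD replicate 3 alone, where the list had 1 rise and 4 falls (background 1.38% and 1.08%).

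The major histocompatibility complex on chromosome 17 encodes class I proteins, which show peptides from inside the cell, and class II proteins, which show peptides taken up from outside. Of 17 tested class I genes 3 were called higher in PWD and 2 lower, and of 10 class II genes 1 was called lower, where 8.46% of all genes were higher and 7.65% lower. H2-K1, a classical class I gene, was at 184, 189 and 171 CPM in PWD and 687, 544 and 386 CPM in C5 (log2 change -1.57 ± 0.24, adjusted p = 1.85e-05). H2-Q4, a non-classical class I gene, was at 57.1, 64.2 and 76.9 CPM in PWD and 15, 8.86 and 12.3 CPM in C5 (log2 change 2.46 ± 0.39, adjusted p = 3.22e-05). H2-Eb1, a class II beta chain, was at 11.2, 13 and 9.42 CPM in PWD and 325, 102 and 142 CPM in C5 (log2 change -4.02 ± 0.65, adjusted p = 4.16e-05). None of the 3 overlapped between the groups, and each was called with PWD replicate 3 alone. These genes are highly polymorphic and alike in sequence, so reads of PWD haplotypes may be lost or assigned to other members, and the levels are uncertain.

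H2-Bl, annotated as a transcribed class I pseudogene, was the second largest of the 12 rises singled out by size. It was at 466, 630.0 and 240.4 CPM in PWD and 1.04, 3.06 and 2.5 CPM in C5 (log2 change 7.33 ± 0.51, adjusted p = 2.16e-12), with 165, 77.9 and 93 CPM in B6xPWD and 4.22, 7.04 and 6.24 CPM in B6. Of 34 interferon-stimulated genes, which cells switch on against viruses, 3 were called higher and 2 lower, against 8.46% and 7.65% of all genes. The falls numbered 1 without PWD replicate 2 or C5 replicate 3 and 4 without C5 replicate 2. Ifi27, an interferon-induced gene, was at 0.762, 1.3 and 1.52 CPM in PWD and 13, 21.7 and 15.3 CPM in C5 (log2 change -3.52 ± 0.36, adjusted p = 1.67e-08). Xaf1, which binds an inhibitor of apoptosis, was at 15.5, 19.8 and 12.5 CPM in PWD and 5.71, 3.06 and 3.82 CPM in C5 (log2 change 1.94 ± 0.39, adjusted p = 0.000659).

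The 12 largest rises and 12 largest falls were chosen for no overlap and a call kept without each library. Neither trait is therefore a result for these genes. This and the next paragraph describe some of them, and the others are described elsewhere. Of those described here, Rprl3, Ces2h, Cml2, Slc34a3, Bglap3, Cyp4f14, Hsd3b3, Ftl1, Rps26 and Hist1h3f were also called with PWD replicate 3 alone. Rps4x was not called with PWD replicate 3 alone (adjusted p = 0.0854). Rprl3, an RNase P RNA-like gene on chromosome 8, was at 727, 723 and 276 CPM in PWD and 0, 2.58 and 7.05 CPM in C5, and at 293, 322 and 273 CPM in B6xPWD and 9.05, 5.6 and 1.13 CPM in B6. Ces2h, a carboxylesterase that cleaves esters of drugs and lipids, was at 17.3, 32.3 and 10.6 CPM in PWD and had no read in C5, at least 115-fold higher in PWD (71 without PWD replicate 2, 67.2 without C5 replicate 2 and 62.6 without C5 replicate 3). Cml2, a member of the camello-like acetyltransferase family, was at 31.7, 38.5 and 11.2 CPM in PWD and 0, 0.161 and 0.588 CPM in C5. Slc34a3, a sodium-phosphate cotransporter known from the kidney, varied more, at 64.5, 4.62 and 19.4 CPM in PWD and 0.519, 0.644 and 0.294 CPM in C5. In every case the lowest PWD library was above the highest C5 library, which the choice of these genes required.

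Among the falls, Bglap3, a gene of the osteocalcin cluster on chromosome 3 (88368616 to 88372741), had no read in the 3 PWD libraries and 92.3, 157 and 157 CPM in C5, at least 703-fold lower in PWD (359 without PWD replicate 2, adjusted p = 2.83e-16). Cyp4f14, a cytochrome P450 that hydroxylates fatty acids and leukotrienes (chromosome 17, 32903357 to 32917376), was at 10.7, 7.21 and 10.6 CPM in PWD and 811, 956 and 517 CPM in C5, 78.5-fold lower. The cross did not show that fall, with 749, 504 and 472 CPM in B6xPWD and 535, 1133 and 1039 CPM in B6 (adjusted p = 0.161). Hsd3b3, a steroid dehydrogenase, had no read in PWD and 3.11, 34 and 18.1 CPM in C5. Ftl1, the ferritin light chain, was at 0.254, 0 and 0.304 CPM in PWD and 51.3, 77.3 and 97.5 CPM in C5. The ribosomal protein genes Rps26 and Rps4x and the histone gene Hist1h3f were likewise nearly unread in PWD, at 0.433 to 1.22, 0 to 0.144 and 0.254 to 0.433 CPM, against 47.7 to 92.5, 18 to 30.6 and 38 to 47.7 CPM in C5. These 4 genes have near-identical copies elsewhere in the genome, so their counts are uncertain.

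Absorptive genes were higher in PWD replicates 1 and 2 above all. Of 25 tested brush border and enterocyte genes 8 were called higher and 0 lower (8.46% and 7.65% of all genes), and of 22 genes of lipid absorption 11 were higher and 0 lower. At an unadjusted p under 0.05 edgeR gave 12 and 15 rises with 0 falls, and DESeq2 called 10 and 12 rises with 0 falls. The counts of rises were 5 and 7 without PWD replicate 2, and the lipid count was 7 without C5 replicate 3. The median log2 changes of the 2 lists were 0.59 and 1.12 with all 6 libraries. With PWD replicate 3 alone they were 0.49 and 0.47, where fewer genes of any kind were called. In the proximal list 4 of 15 genes were called higher, 2 without PWD replicate 2, and in the distal list 2 of 12 were lower, 0 without PWD replicate 1, PWD replicate 2 or C5 replicate 3 and 8 without PWD replicate 3. Summed over the brush border list the level was 46589, 49326 and 37196 CPM in PWD, against 21043, 31172 and 17816 CPM in C5. PWD replicates 1 and 2 are the libraries with little Fabp6 and Slc10a2, and the part of the gut segment in these differences was not tested.

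Sucrase-isomaltase (Sis, chromosome 3), which splits sucrose and starch products, was at 7932, 10200.0 and 3928 CPM in PWD and 1199, 2799 and 1013 CPM in C5 (log2 change 2.14 ± 0.48, adjusted p = 0.00214). Slc5a1, the sodium-glucose cotransporter on chromosome 5, was at 5837, 8305 and 2606 CPM in PWD and 1050.0, 1433 and 592 CPM in C5 (log2 change 2.44 ± 0.45, adjusted p = 0.00026). Slc2a5, the fructose transporter, was at 266, 612 and 133 CPM in PWD and 38.9, 52.5 and 23.4 CPM in C5 (log2 change 3.14 ± 0.70, adjusted p = 0.00193). In each, PWD replicate 3 was the lowest of the PWD libraries, yet above all 3 C5 libraries. With PWD replicate 3 alone the log2 changes were 1.24, 1.35 and 1.80 and none was called (adjusted p = 0.368, 0.236 and 0.321). In B6xPWD over B6 the changes of these genes were 0.09, -1.03 and -0.51, and none was called (adjusted p = 0.939, 0.128 and 0.688).

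The promoters of 6 called genes that digest or carry sugars (Sis, Slc5a1, Slc2a5, Slc2a2, Mgam and Treh, chosen after their values were seen) were searched for letters bound by regulators of enterocyte genes. The letters were AGATAA for Gata factors, TTTAT for Cdx factors and GTTAAT for Hnf1, on both strands. TTTAT reads ATAAA on the other strand, which overlaps the TATA box. Of 32851 mouse promoters of the same length 11.2%, 40% and 7.1% held these letters. Sis held 4 matches to Cdx letters and 1 to Hnf1 letters, Mgam held 2 to Gata and 3 to Cdx letters, and the other 4 promoters held none in this window. Mgam, the maltase-glucoamylase beside Sis in the brush border, was at 3319, 4062 and 1741 CPM in PWD and 896, 1651 and 1173 CPM in C5 (adjusted p = 0.00425). The 2 promoters are shown because they hold matches, while Slc5a1 and Slc2a5 rose as well without any. Matches are in capitals, and each stretch runs 250 bases before to 50 after the start as RefSeq gives it on GRCm38.p6. Sis is at chr3:72967814-72968113 on the minus strand and Mgam at chr6:40628581-40628880 on the plus strand. A match describes the letters alone.
Sis: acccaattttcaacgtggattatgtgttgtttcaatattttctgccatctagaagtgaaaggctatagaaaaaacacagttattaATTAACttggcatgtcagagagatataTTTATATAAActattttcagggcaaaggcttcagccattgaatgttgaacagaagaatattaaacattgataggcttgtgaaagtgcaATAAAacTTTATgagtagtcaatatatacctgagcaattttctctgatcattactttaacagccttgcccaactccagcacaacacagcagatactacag
Mgam: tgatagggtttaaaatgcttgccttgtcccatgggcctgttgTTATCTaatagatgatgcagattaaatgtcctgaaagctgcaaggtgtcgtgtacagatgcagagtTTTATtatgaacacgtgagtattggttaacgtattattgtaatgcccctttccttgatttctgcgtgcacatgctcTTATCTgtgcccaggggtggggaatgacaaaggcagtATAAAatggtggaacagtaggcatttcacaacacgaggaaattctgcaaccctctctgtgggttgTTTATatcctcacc

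Of the genes of peptide, fat and vitamin uptake, Mme, a brush border peptidase, was at 1435, 1732 and 396 CPM in PWD and 179, 301 and 107 CPM in C5 (log2 change 2.60 ± 0.55, adjusted p = 0.00122). Slc46a1, the folate transporter of the proximal gut, was at 119, 289 and 17 CPM in PWD and 10.4, 11.4 and 11.3 CPM in C5 (log2 change 3.64 ± 0.47, and 0.61 with PWD replicate 3 alone). Apoc2, the cofactor of lipoprotein lipase, was at 537, 558 and 83 CPM in PWD and 57, 35.3 and 9.84 CPM in C5 (log2 change 3.58 ± 0.77, adjusted p = 0.00135). Each of these 3 was highest in PWD replicates 1 and 2 and closer to C5 in PWD replicate 3. Cd36, the fatty acid translocase on chromosome 5, overlapped between the groups, at 208, 251 and 14.6 CPM in PWD and 37.3, 9.34 and 10.6 CPM in C5, and its change was -0.24 with PWD replicate 3 alone. Plin2, which coats lipid droplets, did not follow these libraries. It was at 54.6, 71 and 62 CPM in PWD and 24.9, 32.2 and 22.2 CPM in C5 (log2 change 1.23 ± 0.19, adjusted p = 3.33e-05), kept its call with PWD replicate 3 alone (log2 change 1.22, adjusted p = 0.008) and was higher in B6xPWD than in B6 (log2 change 0.98, adjusted p = 0.00143).

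**Figure D4:**
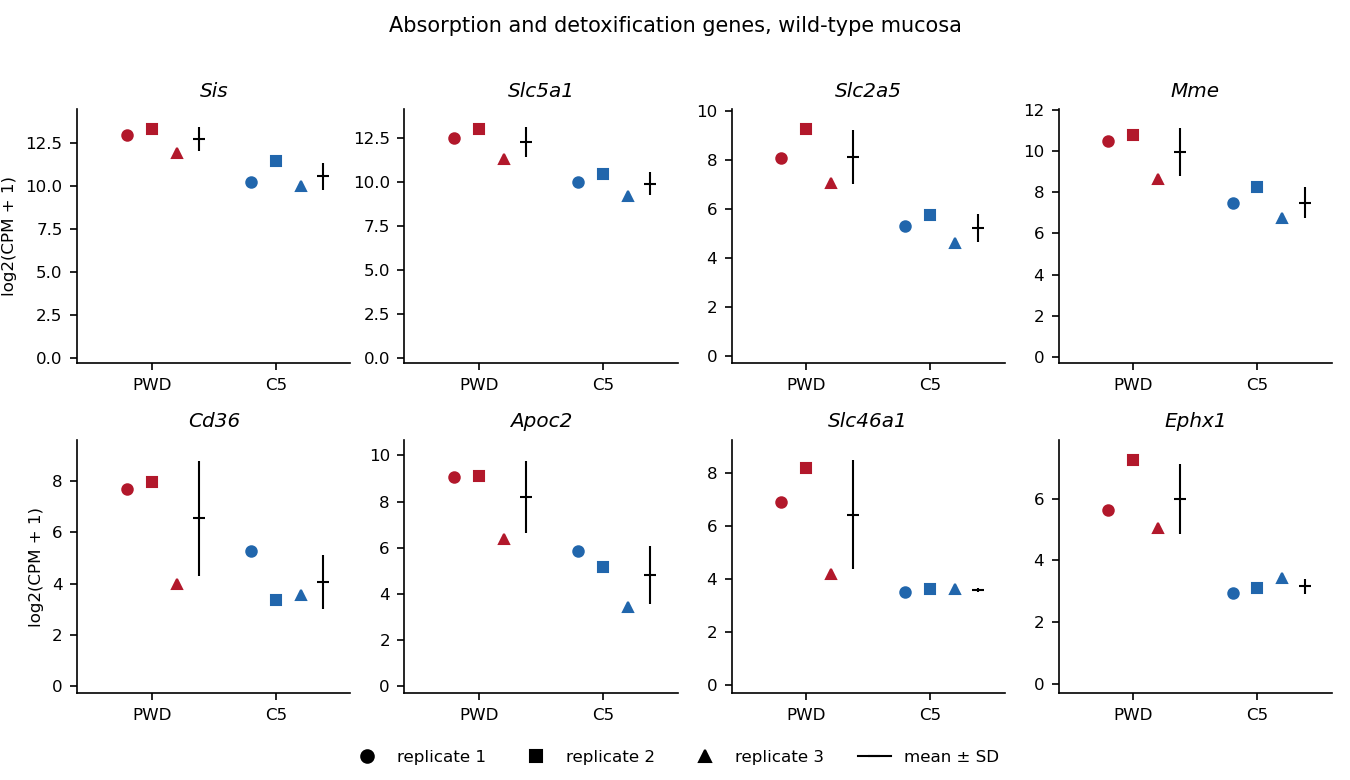
TMM-normalised expression (log2(CPM + 1), vertical axes) of 8 genes of absorption and detoxification in each PWD and C5 wild-type library, with the mean ± SD (n = 3) beside each group. PWD replicate 3 (triangle) is the lowest PWD library in every panel, and for Cd36 it lies among the C5 libraries, at 14.6 CPM against 9.34 to 37.3 CPM.

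Of 58 tested genes of phase 1 and 2 drug metabolism, which make foreign compounds soluble, 24 were called higher in PWD, 3 lower and 31 neither. Of 28 glutathione transferases and related genes 14 were higher, 3 lower and 11 neither, where 8.46% of all tested genes were higher and 7.65% lower. The rises numbered 15 and 8 without PWD replicate 2, and the glutathione count was 8 without C5 replicate 3. The rises numbered 2 and 4, and the falls 2 and 2, with PWD replicate 3 alone (background 1.38% and 1.08%). Of the 24 drug metabolism genes 12 were also called higher in B6xPWD over B6 wild-type mucosa (5.29% of all genes), as were 5 of the 14 glutathione genes.

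Ephx1, the microsomal epoxide hydrolase (chromosome 1), was at 49, 150.5 and 32.2 CPM in PWD and 6.74, 7.73 and 9.7 CPM in C5 (log2 change 3.19 ± 0.40, adjusted p = 7.32e-07). Ces2b, a carboxylesterase, was at 21.8, 62.8 and 23.1 CPM in PWD and 1.04, 6.92 and 1.91 CPM in C5 (log2 change 3.20 ± 0.45, adjusted p = 6.46e-06). Gsta4, the glutathione transferase of lipid peroxidation products, was at 206, 392 and 137 CPM in PWD and 13.5, 44.9 and 24.4 CPM in C5 (log2 change 3.09 ± 0.43, adjusted p = 5.1e-06). All 3 were higher in every PWD library and were called with PWD replicate 3 alone (log2 changes 1.93, 2.57 and 2.26). Ces2b and Gsta4 were also higher in B6xPWD (log2 changes 2.71 and 2.31, adjusted p = 0.000911 and 0.000975), and Ephx1 was not called there (adjusted p = 0.198). Gsta2, an alpha-class transferase, was at 9.65, 26.5 and 2.43 CPM in PWD and had no read in C5, at least 80.9-fold higher, although the limit was 31.7 without PWD replicate 2, 47.3 without C5 replicate 2 and 44.1 without C5 replicate 3, and transferases of 1 class are alike and may share reads.

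Some of the largest rises followed the same library pattern as absorption. Slc16a9, a carnitine and creatine transporter (chromosome 10), was at 59.7, 222 and 5.78 CPM in PWD and 0.519, 0.483 and 0.735 CPM in C5 (log2 change 6.74 ± 0.76, and 2.76 with PWD replicate 3 alone). Otop3, a proton channel, was at 10.9, 46.6 and 0.608 CPM in PWD and 0, 0.161 and 0 CPM in C5, and Adh4, an alcohol dehydrogenase, at 19.3, 78 and 4.86 CPM in PWD and 1.56, 0.805 and 0 CPM in C5. Neither was called with PWD replicate 3 alone (adjusted p = 0.565 and 0.241). Slc22a13b-ps, annotated as a transcribed pseudogene of an organic anion transporter, was at 71.3, 80.6 and 3.04 CPM in PWD with no read in C5, at least 299-fold higher (175 without C5 replicate 2 and 163 without C5 replicate 3). All 4 were highest in PWD replicate 2 and lowest in PWD replicate 3.

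**Figure D5:**
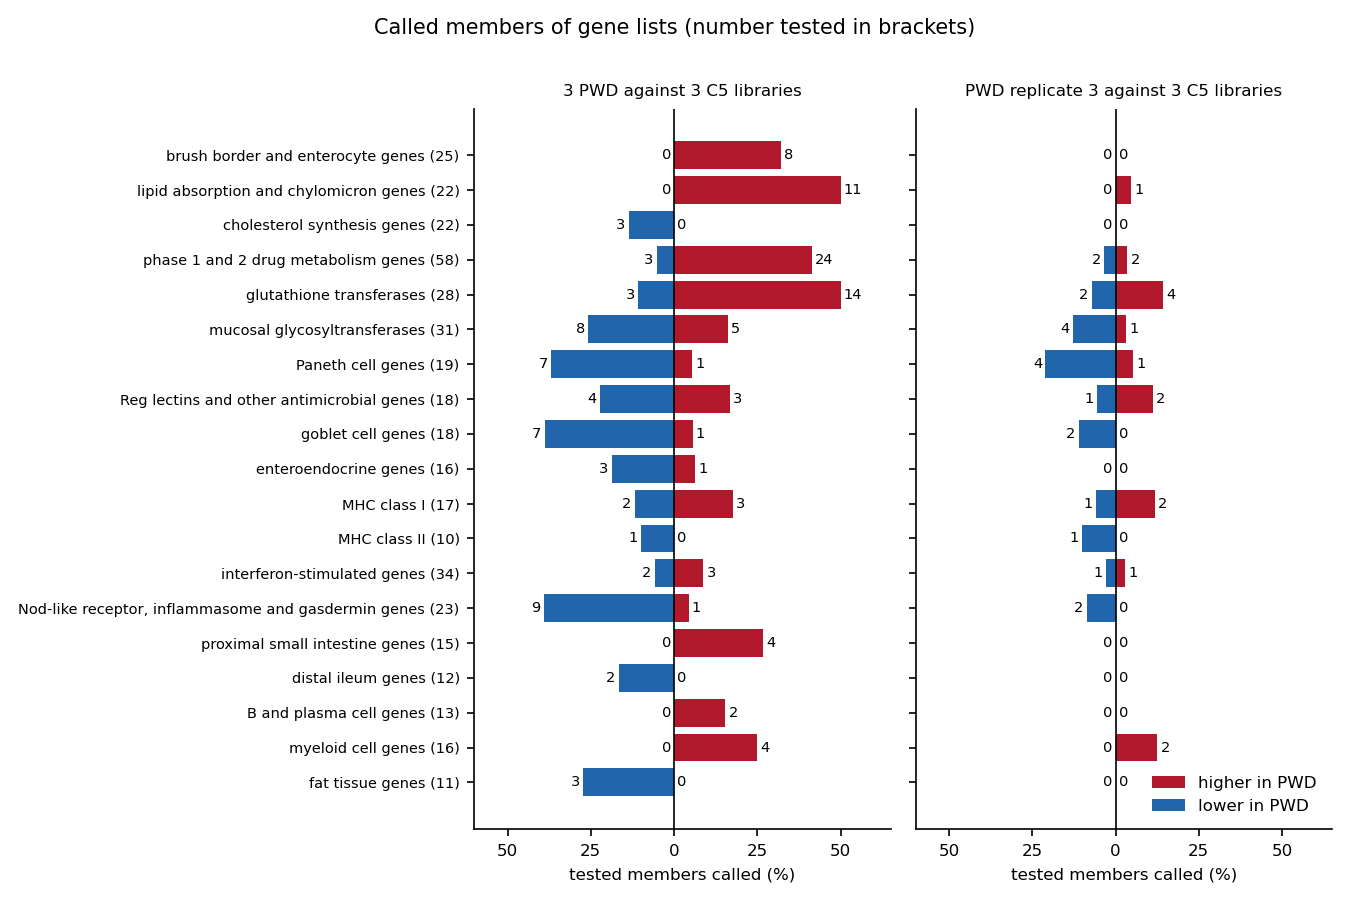
Percent of tested list members called higher (red, right) or lower (blue, left) in PWD than in C5 for 19 gene lists, with the number of called members at the bar ends, for all 6 libraries (left panel) and for PWD replicate 3 against the 3 C5 libraries (right panel). With all libraries, rises of absorption genes number 8 and 11 and falls of Paneth cell genes 7. Fewer genes of any kind are called in the right panel, where PWD is 1 library.

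On chromosome 5 itself the 6 genes with the smallest p that reached 5 CPM were Slc5a1, Ugdh, Gk2, Gm8615, Baiap2l1 and Ugt2b36. Ugdh, which makes the UDP-glucuronic acid that glucuronidation uses up, was at 575, 711 and 256 CPM in PWD and 126, 195 and 120.0 CPM in C5 (log2 change 1.80 ± 0.27, adjusted p = 1.32e-05). Ugt2b36, a glucuronosyltransferase, was at 62.7, 86.8 and 22.2 CPM in PWD and 16.6, 16.8 and 12.9 CPM in C5 (log2 change 1.90 ± 0.37). Both were lowest in PWD replicate 3 among PWD libraries, and neither was called with it alone (adjusted p = 0.201 and 0.665). Gk2, a glycerol kinase, was even across libraries, at 19.3, 19 and 17.3 CPM in PWD and 4.15, 3.7 and 2.64 CPM in C5 (log2 change 2.36 ± 0.36, adjusted p = 1.87e-05). The predicted gene Gm8615 was at 8.63, 13 and 14 CPM in PWD and 2.59, 0.805 and 0.881 CPM in C5. Gk2 and Gm8615 were both called with PWD replicate 3 alone. Baiap2l1, an organiser of actin at the membrane, was at 12.2, 15 and 21 CPM in PWD and 37.3, 21.9 and 63.8 CPM in C5, a log2 change of -1.35 that shrank to -0.84 without C5 replicate 3.

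The called genes not placed on chromosome 5 were then followed into B6xPWD and B6, in libraries outside the PWD and C5 groups. All these libraries were in the same fit and shared its filter, normalisation and estimate of the spread. Of 2109 such genes, 9 of which have no position in the annotation, 316 were called in the same direction in B6xPWD over B6 wild-type mucosa (15%, and 26% of the 1214 calls there). In the opposite direction 54 were called (2.56%). Of all tested genes 9.6% were called in that comparison, made of 5.29% higher and 4.31% lower. In uninvolved Min mucosa 619 were called in the same direction and 41 in the opposite one (background 15.9%, made of 8.74% higher and 7.21% lower), and in adenoma 451 and 100 (background 16.9%, made of 9.95% higher and 6.98% lower). The same direction was called in all 3 comparisons for 149 genes. Among the 320 genes called also with PWD replicate 3 alone, 44.1% were called in the same direction in B6xPWD wild-type mucosa and 3 genes in the opposite one. Among the other 1789 genes 9.78% were called in the same direction and 51 genes in the opposite one. In these wild-type libraries the distal genes ran the other way from the first comparison, with Fabp6 at 5422, 6122 and 2446 CPM in B6xPWD and 1602, 281 and 36.9 CPM in B6. In Min mucosa Gata4 was at 0.614 to 43.5 CPM in B6xPWD and 0 to 0.875 CPM in B6.

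Among the remaining cell types, 4 of 16 tested myeloid cell genes were called higher in PWD, Lyz2, C1qc, Itgax and Cd14, with 1 without PWD replicate 1 or C5 replicate 2, and 2 without PWD replicate 2 or C5 replicate 3. Over all tested genes 8.46% were higher and 7.65% lower, beside which the counts of each cell type stand. Of 13 B and plasma cell genes 2 were higher, 1 without PWD replicate 1 or C5 replicate 2 and 0 without PWD replicate 2 or C5 replicate 3. Of 17 T cell genes 0 were called by edgeR or DESeq2, and 1 was higher at an unadjusted p under 0.05, while edgeR called 1 without PWD replicate 3. The joining chain of secreted antibodies, Igj, was at 1374, 1067 and 346 CPM in PWD and 383, 324 and 215 CPM in C5 (adjusted p = 0.02, and 0.941 with PWD replicate 3 alone). Summed over the B and plasma cell list the level was 1661, 1343 and 626 CPM in PWD and 642, 614 and 491 CPM in C5, with PWD replicate 3 closest to C5. Of 12 endothelial genes 2 were higher, 1 without PWD replicate 1 or PWD replicate 2 and 0 without C5 replicate 3. Of 11 fat tissue genes 3 were lower, 0 without PWD replicate 1, PWD replicate 2, C5 replicate 1 or C5 replicate 3 and 7 without C5 replicate 2. Car3, an enzyme of fat cells, was at 0.762, 0.144 and 5.47 CPM in PWD and 90.2, 0.966 and 47.1 CPM in C5, high in C5 replicates 1 and 3 only. In the fibroblast, smooth muscle, enteric nerve and tuft cell lists edgeR and DESeq2 called 0 genes, and 1, 1, 0 and 2 had an unadjusted p under 0.05.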

How the data were processed

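RNA of intestinal tissue was depleted of ribosomal RNA and read from 1 end on an Illumina Genome Analyzer IIx, per the labels' protocols. The authors deposited raw counts per gene symbol; per the submitters' processing notes the tools were BWA and HTSeq and the genome build mm10, which is a C57BL/6 genome. Versions, gene annotation and strand setting are not given in the sources used here, so reads of overlapping and antisense genes, or of near-identical copies, may be shared. Other reads, 40.7 to 53.9% of a tissue library, fell in HTSeq's summary categories. How PWD mismatches to mm10 affect single genes was not tested.

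The 24062 symbols were matched to RefSeq GRCm38.p6 by symbol (22550) or synonym (1352), and 160 had no match. The 5 summary categories were left out of totals. All 39 tissue libraries were fitted with edgeR 4.0.16 in R 4.3.3 (filterByExpr with minimum count 10 and total 15, TMM, 13 group means, quasi-likelihood F-test, prior count 2), which left 13657 genes. Log2 changes carry an SE calculated back from the test, as the absolute change divided by the square root of F. A gene was called when its p, adjusted by Benjamini-Hochberg across the tested genes, was below 0.05. Floors are 3 reads over a group, intervals are 95%, and both cover counting error only. On simulated data with 200 changed genes, 61% of 2-fold and 92% of 4-fold changes were recovered, with 6 false calls among 13357 genes. The changed genes had a mean of at least 5 CPM, all groups otherwise shared the same means, and libraries varied independently. Low genes and a split within a group, like that among the PWD libraries, were therefore not covered.

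Members and the 37 gene lists were chosen with earlier results of these data known. Named genes are the 12 largest rises and 12 largest falls among called genes (5 CPM or more in the higher group, no overlap, called without each library, no unnamed symbols), up to 4 called members per list and 6 chromosome 5 genes by smallest p, and Nnt, Pla2g2a, Mx1, Mx2, H2-Ea-ps, Gata4, Fabp6, Slc10a2, Apc, Xist and Y-linked genes whatever their values; other genes were chosen after their values were seen. No 2 libraries of a group agreed within sampling noise (lowest chi-square per degree of freedom 25.6). Alternatives were RLE and chromosome 5 normalisation, no Rn45s, no filter, fewer groups, a replicate block, DESeq2 1.42.0, a threshold of 0.01 and leaving out each library; a fit without PWD replicates 1 and 2 was added after the data were seen. Chromosome 5 was counted by RefSeq position.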

Additional observations from a re-analysis of the deposited data

How the results depend on the processing

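The share of called genes on chromosome 5 was below that elsewhere under all 17 settings, between 0.768 and 12.3% on chromosome 5 against 2.57 and 17.2% elsewhere. The count of 2200 genes in PWD over C5 was 1264 in a fit of the compared groups only, 353 without PWD replicates 1 and 2, 1118 at a threshold of 0.01, and 1086 to 2301 with each library left out (1086 without PWD replicate 2 and 1259 without C5 replicate 3). For chromosome 5 the 91 genes became 56 in the 15 wild-type libraries, 38 with the compared groups only, 7 without PWD replicates 1 and 2, 37 at 0.01, and 27 to 109 with each library left out (51 without PWD replicate 1, 27 without PWD replicate 2 and 39 without C5 replicate 3). In B6xPWD over B6 wild-type mucosa 1311 genes became 351 with the compared groups only, 105 with a replicate block in those groups, 474 at 0.01 and 597 to 1564 with each library left out (701 without B6xPWD replicate 2, 704 without B6 replicate 1 and 597 without B6 replicate 2). In Min mucosa 2178 became 929 with that block, 912 at 0.01 and 1185 to 1959 with each library left out (1297 without B6xPWD replicate 2 and 1185 without B6xPWD replicate 3), and in adenoma 2312 became 804 with the compared groups only, 647 with the block, 1037 at 0.01 and 1338 to 2739 with each library left out (1526 without B6 replicate 1 and 1338 without B6 replicate 2). Fits of fewer libraries have fewer degrees of freedom; beyond that the cause was not tested.

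Whether replicate numbers pair the samples was not tested. Correlations of deviations between PWD and C5 were 0.18, 0.05 and 0.27 for replicates 1, 2 and 3. Between unlike replicate numbers they were -0.21 to 0.09. The replicate block gave 2222 genes in PWD over C5, or 1978 in the compared groups only, where 1264 were called without it. Over 109 tested named genes and all settings, 1518 values kept direction and call, 184 lost the call, 2 gained it and 27 changed direction. With each library left out the log2 change spanned -11.39 to 0.17 for Fabp6, -6.12 to 0.09 for Slc10a2, -0.23 to 0.20 for Apc, -0.19 to 0.00 for Kdm5d and -0.33 to 0.13 for Uty. Without PWD replicates 1 and 2 the log2 change was -0.24 for Cd36, -0.81 for Onecut2, -1.60 for Fabp1, -0.96 for Slc37a2, -0.44 for Gata4, 1.17 for Fabp6, 1.05 for Slc10a2, 0.02 for Apc and -0.11 for Ddx3y. Fabp6 stood at 0.17 without PWD replicate 1 or PWD replicate 2 and 0.15 without C5 replicate 2. Slc10a2 stood at 0.04 without PWD replicate 1, 0.06 without PWD replicate 2 and 0.09 without C5 replicate 3. Apc, at -0.01 in the comparison as reported, stood at 0.01 with RLE, chromosome 5 normalisation, the block in the compared groups and without PWD replicate 2, 0.00 with the block, 0.20 without C5 replicate 2 and 0.03 without C5 replicate 3. Kdm5d stood at 0.00 without PWD replicate 3. Uty stood at 0.00 with chromosome 5 normalisation, 0.08 without PWD replicate 2, 0.13 without PWD replicate 3 and 0.05 without C5 replicate 2. The smallest library, C5 replicate 1 with 2726505 gene counts, limits what can be seen in low genes.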

Other observations

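Bglap3, the gene with the largest fitted fall among the named genes, was read at very different levels in the other mice. In wild-type mucosa it averaged 0 CPM in PWD, 136 ± 37.5 CPM in C5, 3.23 ± 1.15 CPM in C5F1 (the cross of B6 and C5), 2.34 ± 0.157 CPM in B6xPWD and 1.15 ± 0.0468 CPM in B6 (SD, n = 3 each). Among C5 Min tissues it averaged 82.3 ± 11.8 CPM in adenomas and 104 ± 23.5 CPM in uninvolved mucosa (SD, n = 3 each). In organoids, which were counted as CPM without TMM, it was at 524 and 677 CPM in C5 cultures with 5-aza-cytidine, a drug that traps DNA methyltransferases, and 26.7 and 46.9 CPM in C5 control cultures. In B6 organoids it was at 36.3 and 39.7 CPM with the drug and 0.147 and 0.15 CPM in controls. No test was made of these levels beyond PWD over C5.

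Among hormone genes, Gcg, Pyy and Nts of the distal gut were called lower in PWD and Ghrl higher. Of 16 tested enteroendocrine genes 3 were called lower and 1 higher (7.65% and 8.46% of all tested genes), with 1 lower call left without PWD replicate 1, PWD replicate 2 or C5 replicate 3. The median log2 change of the list was -0.5, and -0.68 with PWD replicate 3 alone. Gcg, the glucagon and GLP-1 precursor, was at 14.2, 10.8 and 23.1 CPM in PWD and 23.9, 44 and 48.3 CPM in C5 (log2 change -1.31 ± 0.27, adjusted p = 0.00104). PWD replicate 3, the library with high Fabp6, was the highest PWD library, and Gcg was not called with it alone (adjusted p = 0.381). Ghrl, the ghrelin gene of the stomach and proximal gut, was at 5.59, 7.36 and 2.74 CPM in PWD and 1.04, 3.06 and 1.03 CPM in C5 (adjusted p = 0.0479, and up to 0.264 with 1 of PWD replicate 1, PWD replicate 2, C5 replicate 1 or C5 replicate 3 left out).

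Of 22 cholesterol synthesis genes 3 were called lower (7.65% of all tested genes), 7 without PWD replicate 3 and 1 or 2 without any other single library. The median log2 change of the list was -0.38, and 0.29 with PWD replicate 3 alone. Pcna, the sliding clamp of DNA replication, was at 12.7, 13.6 and 12.5 CPM in PWD and 21.8, 32.7 and 42.5 CPM in C5 (log2 change -1.33 ± 0.28, adjusted p = 0.00119), 1 of 2 lower calls among 28 cell cycle genes, beside 7.65% of all tested genes. That count was 1 without PWD replicate 2 or C5 replicate 1 and 3 without PWD replicate 3. The median log2 change of the cell cycle list was -0.25, and -0.11 with PWD replicate 3 alone. Ephb3, a receptor of the crypt base, was at 6.86, 5.63 and 7.29 CPM in PWD and 16.1, 19.5 and 20.6 CPM in C5 (log2 change -1.50 ± 0.24, adjusted p = 4.58e-05), 1 of 2 lower calls among 23 stem cell and Wnt genes, again beside 7.65%. That count was 1 without PWD replicate 1, PWD replicate 2 or C5 replicate 2 and 4 without PWD replicate 3. The median log2 change of the stem cell and Wnt list was -0.31, and -0.23 with PWD replicate 3 alone. Cel, a bile salt-stimulated lipase known from the pancreas, was at 6.09, 1.3 and 16.7 CPM in PWD with no read in C5, at least 31-fold higher (15.1 without PWD replicate 3, 54.5 without PWD replicate 2, 18.1 without C5 replicate 2 and 16.9 without C5 replicate 3), and at 10.9, 6.94 and 8.13 CPM in B6xPWD with no read in B6. Of 20 circadian clock genes edgeR called 0 and DESeq2 called 1 lower, with 3 lower at an unadjusted p under 0.05.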
